A study of Mus musculus with 10 samples.

Results

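Fas, 4 further receptors of the tumour necrosis factor (TNF) receptor family and 5 genes of the signalling complexes beneath them were followed across 10 mouse mammary carcinoma cell lines, 1 RNA sequencing library each. The 10 genes are Fas, Tnfrsf10b, Tnfrsf1a, Tnfrsf1b, Tnfrsf21, Fadd, Casp8, Cflar, Ripk1 and Bid, and they were picked by name out of 55417 named genes. All 10 were found, and all 10 passed the filter on low counts that left 19935 genes for testing. The set was proposed with the levels of Fas in these libraries known, so gene levels are given as a description and the counts of calls among these 10 genes support nothing.

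The META group holds lines 5, 3 and 7, which came from lung metastases. The CTC group holds lines 1, 3 and 6 from circulating tumour cells, and the PRI group holds lines 5, 7 and 8 from fat pad tumours. The 9 lines of these groups, called derived lines here, were grown from immunodeficient NOD-SCID-GAMMA (NSG) mice, and their labels trace all of them back to circulating tumour cells of NSG mice with spontaneously metastasizing 4T1-hHER2-Luc tumours. The parental line, 4T1-hHER2, carries human HER2 and luciferase through a lentivirus and has the strain label BALB/cfC3H; its single library has no replicate. The derived lines therefore share their passage through NSG mice as well as their origin, and passage, host and selection cannot be told apart in a comparison with parental. Nothing in the labels says what a line's number stands for or whether a line is 1 clone, and p-values measure the spread between these lines alone.

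Death receptors are TNF receptor family members with a death domain in the cytoplasmic tail. Ligand-bound Fas, or the TRAIL receptor encoded by Tnfrsf10b, recruits the adaptor FADD, which brings in procaspase-8. Caspase-8 then cleaves effector caspases and BID, whose truncated form acts at mitochondria. c-FLIP, the product of Cflar, resembles caspase-8 without its activity and joins the same complex. TNF receptor 1, encoded by Tnfrsf1a, first assembles a complex with the kinase RIPK1 that activates NF-kB, while TNF receptor 2, encoded by Tnfrsf1b, has no death domain and signals through TRAF proteins.

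Libraries held between 79869760 and 97722716 estimated counts, of which 19.7% to 22.8% belonged to assembled transcripts tied to no gene. Reads of a named gene may have been counted there, which would lower its level and was not tested. Levels are in CPM, the usual per-library scaling of counts to a common depth, here of named-gene counts with TMM factors. The epithelial markers Epcam and Cdh1 were detected in every library, from 15.7 and 77.3 CPM upward. The 8 blood and immune markers summed to at most 1.08 CPM in META, 0.473 CPM in CTC, 0.303 CPM in PRI and 0.397 CPM in parental, with Adgre1, Cd3e and Hbb-bs at 0 in all 10 libraries. In such bulk libraries, fewer cells expressing a gene and less RNA per cell cannot be told apart.

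Fas (ENSMUSG00000024778.13, GRCm38 chr19:34290666-34327772, plus strand) was at 14.8, 7.99 and 7.46 CPM in META 5, 3 and 7. It was at 5.80, 6.27 and 6.28 CPM in CTC 1, 3 and 6 and at 5.92, 8.998 and 9.57 CPM in PRI 5, 7 and 8, against 62.1 CPM in parental. All 9 derived lines thus lay far below parental, and the gap between parental and the highest of them, META 5, was 4.21-fold, while CTC 1, the lowest, was 10.7-fold below parental. The estimated counts behind these levels were 405 to 1134 in the derived lines and 4381 in parental. Among the derived lines Fas spanned 2.54-fold, and the steps between neighbours in the order of levels below META 5 were at most 1.19-fold, so that CTC 6, CTC 3, PRI 5 and CTC 1 can hardly be ordered. The group means were 10.1 ± 4.07 CPM in META, 6.12 ± 0.276 CPM in CTC and 8.16 ± 1.96 CPM in PRI (SD, n = 3 each).

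The fitted log2 change of Fas over the derived lines against parental was -2.96 (SE 0.35), which is 7.80-fold lower. A log2 change at least as low was reached by 1.91% of all genes tested and by 10 of the 11311 genes with a mean log2 CPM of at least 1 (0.0884%). Per kilobase of transcript, Fas had the highest level of the 10 genes in parental, 41.3 CPM per kb. In the derived lines it averaged 5.50 ± 1.91 CPM per kb (SD, n = 9), with only Fadd and Tnfrsf21 of the 10 genes below it. On this length-corrected scale Fas was among the 3 lowest of the 10 genes in the derived lines, against the highest place in parental.

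**Figure D1:**
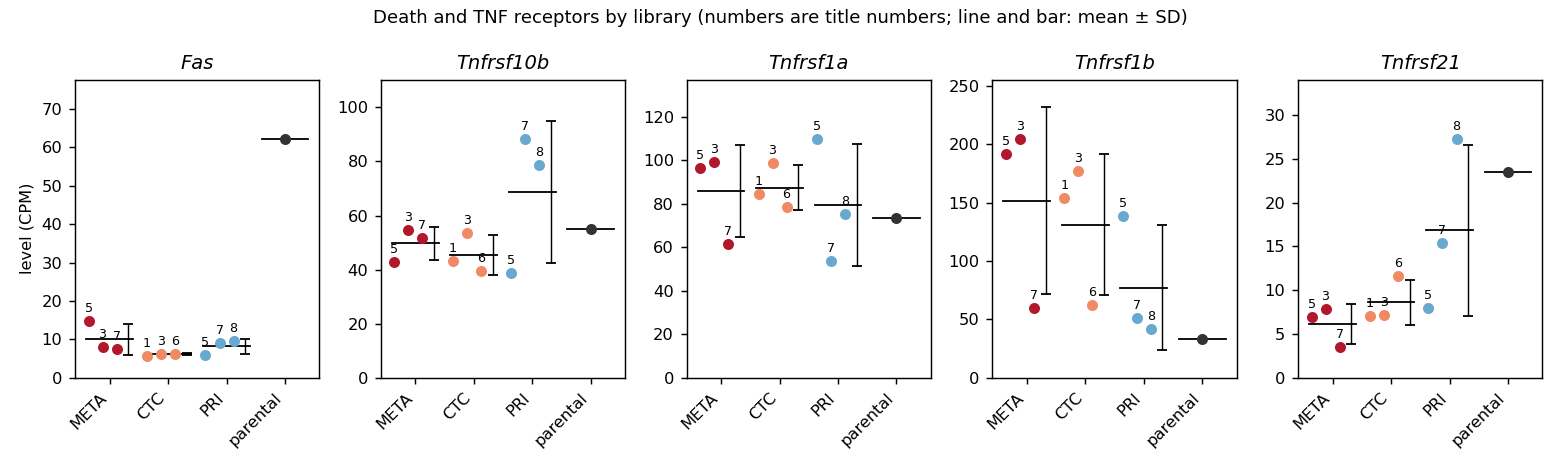
Level in CPM (linear axis from 0) of Fas, Tnfrsf10b, Tnfrsf1a, Tnfrsf1b and Tnfrsf21 in META, CTC, PRI and parental; each point is 1 library marked with its line number, and lines with bars show the mean ± SD of 3 libraries (parental is a single library). Fas sits between 5.80 and 14.8 CPM in the derived lines and at 62.1 CPM in parental, and Tnfrsf1b has a high and a low set of lines in every derived group.

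The 250 bases before the RefSeq start of Fas (GRCm38.p6, chr19:34290409-34290658, plus strand) and of Tnfrsf1b (GRCm38.p6, chr4:145246871-145247120, minus strand) are shown because these receptors had the largest differences from parental in opposite directions. Capitals mark every match to the motifs searched on both strands.
Fas: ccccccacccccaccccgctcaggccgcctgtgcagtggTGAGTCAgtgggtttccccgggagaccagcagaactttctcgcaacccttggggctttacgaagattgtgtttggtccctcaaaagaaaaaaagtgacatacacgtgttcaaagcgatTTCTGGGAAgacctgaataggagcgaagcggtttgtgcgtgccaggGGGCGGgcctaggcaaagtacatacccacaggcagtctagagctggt
Tnfrsf1b: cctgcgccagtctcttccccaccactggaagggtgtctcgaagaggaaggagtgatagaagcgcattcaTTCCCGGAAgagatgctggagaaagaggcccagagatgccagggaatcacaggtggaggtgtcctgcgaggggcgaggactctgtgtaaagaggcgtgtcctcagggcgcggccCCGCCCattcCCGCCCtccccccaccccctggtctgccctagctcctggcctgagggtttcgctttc
Each held 1 match to the STAT motif GAS (TTCNNNGAA, in 7.02% of 32851 mouse promoter windows of this length). Fas also held 1 match to the AP-1 motif (TGANTCA, in 6.75%) and 1 GC box (GGGCGG, in 32.7%), and Tnfrsf1b held 2 GC boxes on the other strand. Neither window matched the kappaB consensus, present in 7.25% of windows, or the p53 half-site consensus, present in 7.13%. The motifs did not overlap one another in these windows. A match describes letters only, and no binding was measured. Of the 10 genes, 9 were matched in the promoter table.

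The genes whose log2 CPM ran most like that of Fas over the 10 libraries, among 10301 genes searched, were Dcun1d4 (Pearson r 0.912, Spearman rho 0.891), Hotairm1 (r 0.891, rho 0.867), Fnbp4 (r 0.888, rho 0.612), Ifngr2 (r 0.882, rho 0.527) and Prkx (r 0.864, rho 0.721). All libraries share the same depth range and scaling, and parental alone sets much of these values. Without parental, r was 0.839 for Dcun1d4 and 0.854 for Hotairm1, but 0.445 for Fnbp4, 0.205 for Ifngr2 and 0.556 for Prkx. Leaving out META 5 as well gave 0.761 for Dcun1d4, 0.665 for Hotairm1, 0.0454 for Fnbp4, 0.606 for Ifngr2 and 0.433 for Prkx. Dcun1d4 was at 12.1 to 28.6 CPM in the derived lines, against 47.3 CPM in parental. Ifngr2, a chain of the interferon gamma receptor, was at 50.5 to 67.5 CPM in the derived lines, against 107 CPM in parental.

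Tnfrsf1b (ENSMUSG00000028599.10, chr4:145213463-145246870, minus strand) was higher than parental in all 9 derived lines and split every derived group. It was at 192, 204.4 and 59.5 CPM in META 5, 3 and 7, at 154, 177 and 62.7 CPM in CTC 1, 3 and 6, and at 139, 50.9 and 41.8 CPM in PRI 5, 7 and 8, against 33.2 CPM in parental. META 5, META 3, CTC 1, CTC 3 and PRI 5 formed the high set, and the step from PRI 5 down to CTC 6 was 2.21-fold, the largest between neighbours in the order. Parental was the lowest library, 1.259-fold below PRI 8. The fitted log2 change against parental was 1.80 (SE 0.93), and 15.6% of genes tested had one at least as high.

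Of the epithelial and mesenchymal markers, some divided the lines as Tnfrsf1b did and others did not. Cdh1, the epithelial cadherin, was at 88.7, 77.3 and 391 CPM in META 5, 3 and 7, at 94.2, 77.7 and 150 CPM in CTC 1, 3 and 6, and at 107, 627 and 419 CPM in PRI 5, 7 and 8, against 366 CPM in parental. Pdgfra, a growth factor receptor common in mesenchymal cells, was at 269, 126 and 11.3 CPM in the META lines, 72.3, 141 and 10.1 CPM in the CTC lines and 58.1, 4.84 and 4.05 CPM in the PRI lines, against 4.45 CPM in parental. The 5 lines high in Tnfrsf1b were the 5 with the lowest Cdh1 and the highest Pdgfra. Epcam divided them otherwise, at 21.9, 30.0 and 47.0 CPM in META 5, 3 and 7, 16.5, 15.7 and 39.7 CPM in CTC 1, 3 and 6 and 56.3, 203.5 and 134 CPM in PRI 5, 7 and 8, against 56.0 CPM in parental. PRI 5, high in Tnfrsf1b, thus had more Epcam than META 7, CTC 6 and parental, which were low in it. The keratin gene Krt8 was at 114 to 1232 CPM in the lines high in Tnfrsf1b and 147 to 626 CPM in the derived lines low in it, against 54.7 CPM in parental, and did not separate them. Krt18 was at 1157 to 1462 CPM in the lines high in Tnfrsf1b and 303 to 1077 CPM in the derived lines low in it, against 404 CPM in parental, so that among the derived lines this epithelial gene was higher where Cdh1 was lower. Vim, a mesenchymal filament gene, was at 2015 to 4750 CPM in the high lines and 584 to 2117 CPM in the low derived lines, which overlapped, against 301 CPM in parental. Pdgfra made up most of the 7 fibroblast and endothelial markers, which summed to 13.8 to 284 CPM in META, 11.1 to 143 CPM in CTC and 5.25 to 62.1 CPM in PRI, against 5.78 CPM in parental. The fibroblast collagens Col1a1 and Col3a1 were at no more than 2.32 and 0.325 CPM in any library. Dcn, another fibroblast gene, was at 0.573 to 12.4 CPM in META, 0.610 to 1.59 CPM in CTC and at most 2.22 CPM in PRI. In parental Dcn was at 0 CPM. The part of any of these genes in the split was not tested.

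Tnfrsf1a (ENSMUSG00000030341.17, chr6:125349362-125362484), the TNF receptor with a death domain, was at 96.6, 99.2 and 61.6 CPM in META 5, 3 and 7, at 84.7, 98.8 and 78.7 CPM in CTC 1, 3 and 6, and at 110, 53.9 and 75.1 CPM in PRI 5, 7 and 8, against 73.7 CPM in parental. Every group overlapped every other, and parental lay inside their range. Tnfrsf10b (ENSMUSG00000022074.6, chr14:69767472-69784411), the mouse TRAIL death receptor, was at 42.8, 54.5 and 51.8 CPM in META, 43.1, 53.7 and 39.4 CPM in CTC and 38.9, 88.2 and 78.8 CPM in PRI, against 55.1 CPM in parental. PRI 7 and PRI 8 stood above every other library, while PRI 5 was the lowest of the 10. Unlike Fas, Tnfrsf10b had parental inside the range of the derived lines, as Tnfrsf1a did. For Tnfrsf10b, parental lay below PRI 7 and PRI 8 and above the other 7.

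Tnfrsf21 (ENSMUSG00000023915.5, chr17:43016555-43089189), which encodes death receptor 6, was at 6.95, 7.90 and 3.50 CPM in META 5, 3 and 7. It was at 7.08, 7.14 and 11.6 CPM in CTC 1, 3 and 6 and at 7.92, 15.4 and 27.2 CPM in PRI 5, 7 and 8, against 23.5 CPM in parental. Only PRI 8 exceeded parental, and META 3 lay below PRI 5 by no more than 1.003-fold, so the META and PRI lines were separated by next to nothing at that edge. With a 7.77-fold range over the derived lines it was the most variable of the 10 genes there, and 12.5% of 11311 genes with a mean log2 CPM of at least 1 varied more widely.

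The adaptor Fadd (ENSMUSG00000031077.7, chr7:144577318-144582463, minus strand) was at 18.2, 17.8 and 15.1 CPM in META 5, 3 and 7, 26.8, 18.1 and 29.1 CPM in CTC 1, 3 and 6 and 23.9, 16.8 and 20.7 CPM in PRI 5, 7 and 8, against 26.8 CPM in parental. It shares 239 exon bases with Faddos on the opposite strand, and since the sources used here do not say whether counting used strand, its counts are uncertain. Casp8 (ENSMUSG00000026029.14, chr1:58795374-58847503), the initiator caspase, was at 58.4, 62.0 and 86.6 CPM in META, 73.1, 63.3 and 83.8 CPM in CTC and 81.9, 82.4 and 69.6 CPM in PRI, against 73.8 CPM in parental. Its highest and lowest libraries differed 1.48-fold, and 97.9% of the 11311 genes had a wider range over the 10 libraries.

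Cflar (ENSMUSG00000026031.15, chr1:58711508-58758884), the caspase-8 inhibitor gene, varied far more than Casp8, its neighbour on chromosome 1. It was at 36.1, 37.5 and 27.7 CPM in META 5, 3 and 7, at 16.7, 45.2 and 10.7 CPM in CTC 1, 3 and 6 and at 44.96, 18.2 and 27.1 CPM in PRI 5, 7 and 8, against 49.5 CPM in parental. Parental was the highest library, 1.10-fold above CTC 3, and CTC 6 the lowest, so the CTC lines alone covered the whole derived range of 4.24-fold. Ripk1 (ENSMUSG00000021408.15, chr13:34002363-34037147), the kinase gene, was at 49.5, 57.1 and 49.2 CPM in META, 53.4, 56.6 and 28.5 CPM in CTC and 45.1, 47.3 and 27.8 CPM in PRI, against 31.0 CPM in parental. The 3 META lines lay above the 3 PRI lines, and CTC 6 and PRI 8 lay below parental. Ripk1 shares 241 exon bases with Serpinb6a on the opposite strand and 511 with Gm17084 on its own strand, so its counts are uncertain too.

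Bid (ENSMUSG00000004446.12, chr6:120891930-120916853, minus strand), the caspase-8 target of the BCL2 family, was at 63.6, 68.7 and 49.9 CPM in META 5, 3 and 7, 77.0, 70.8 and 83.4 CPM in CTC 1, 3 and 6 and 65.1, 64.3 and 73.4 CPM in PRI 5, 7 and 8, against 76.2 CPM in parental. The META lines lay below the CTC lines, and the whole range over 10 libraries was 1.67-fold, narrower than that of 92.3% of the 11311 genes. It shares 628 exon bases with Bcl2l13 on the opposite strand.

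Per kilobase, the most abundant of the 10 genes in the derived lines was Tnfrsf1a at 39.5 ± 8.61 CPM per kb, followed by Casp8 at 31.7 ± 4.66, Tnfrsf1b at 31.5 ± 17.3 and Bid at 31.2 ± 4.23 CPM per kb (SD, n = 9 each). The last 3 differed by less than their spread. In parental the order was Fas, Bid (35.0 CPM per kb), Tnfrsf1a (34.5) and Casp8 (32.2), with Tnfrsf1b at 8.69 CPM per kb. Tnfrsf1b thus stood above Fas in the derived lines and below it in parental. Tnfrsf1a, Casp8, Bid and Tnfrsf10b had levels in parental within 1 SD of their derived mean, Tnfrsf10b with 18.7 against 18.3 ± 6.05 CPM per kb.

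**Figure D2:**
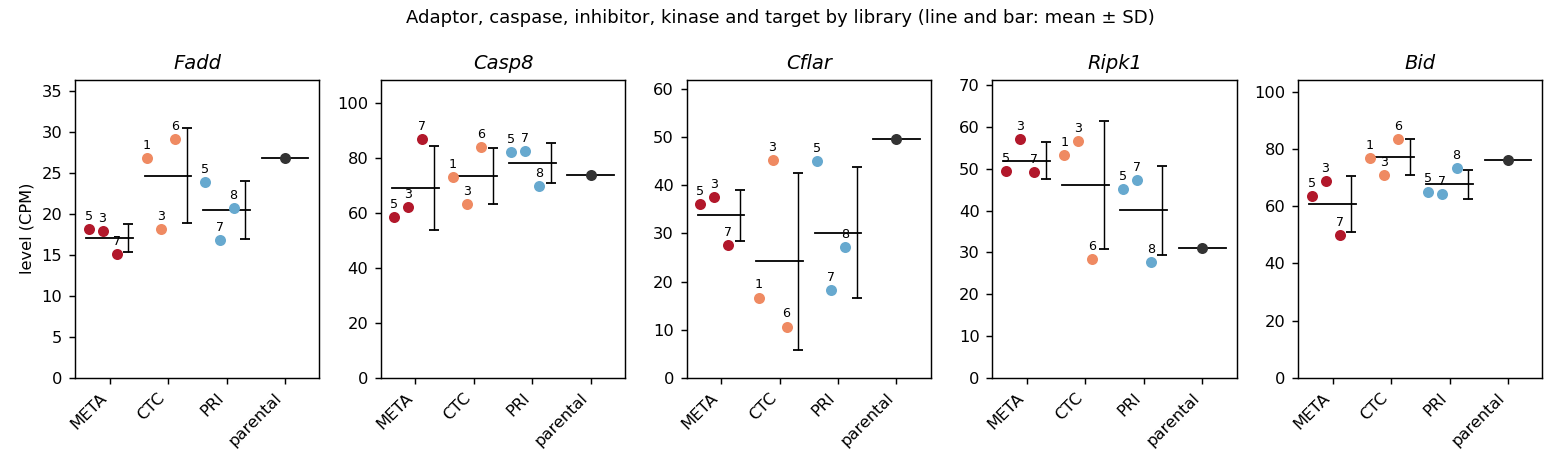
Level in CPM (linear axis from 0) of Fadd, Casp8, Cflar, Ripk1 and Bid in META, CTC, PRI and parental; each point is 1 library marked with its line number, with the mean ± SD of 3 libraries (parental is a single library). Casp8 and Bid stay within a narrow band, and Cflar covers 10.7 to 45.2 CPM within the CTC lines alone.

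In META against PRI, which sets lines from lung metastases against lines from fat pad tumours, Tnfrsf21 had a log2 change of -1.46 (SE 0.51), Tnfrsf1b of 0.98 (SE 0.62) and Fas of 0.30 (SE 0.35). Leaving out META 5 turned the change of Fas to -0.08, and that of Tnfrsf1b ran from 0.35 with the line number as a fixed block to 1.71 without PRI 5. edgeR's quasi-likelihood test, with p-values adjusted by the Benjamini-Hochberg method, called 0 of the 10 genes, beside 0% of the 19935 tested, and DESeq2 and limma-voom called 0 of the 10 as well, beside 0.938% and 0% of all genes. Tnfrsf21 alone had an unadjusted p under 0.05, as did 8.29% of all genes. The groups did not overlap for Ripk1, which was higher in META (6.38% of genes were separated so), and for Tnfrsf21, which was lower (7.27%). Being 1 gene of 10 in each direction, these separations lie near the background and say nothing about the 10 genes. The median log2 change of the 10 genes was -0.02, against 0.01 over all genes.

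CTC against PRI gave log2 changes between -0.97 (SE 0.51) for Tnfrsf21 and 0.77 (SE 0.62) for Tnfrsf1b, with Fas at -0.42 (SE 0.35). edgeR called 0 of the 10, beside 0% of all genes, as did DESeq2 and limma-voom, beside 0.331% and 0%. None had an unadjusted p under 0.05, where 4.06% of all genes did, and the groups overlapped for each of the 10 genes, where 7.15% of all genes were separated (3.13% higher and 4.02% lower in CTC). The median log2 change was 0.02, against -0.01 over all genes.

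META against CTC gave the largest log2 change for Fas, 0.72 (SE 0.35), followed by Fadd at -0.53 (SE 0.28) and Tnfrsf21 at -0.49 (SE 0.50). edgeR called 0 of the 10 genes, beside 0.00502% of all genes, DESeq2 and limma-voom called 0, beside 0.14% and 0.00502%, and none had an unadjusted p under 0.05, where 3.29% of all genes did. The groups were separated for Fas, higher in META (4.43% of genes), and for Bid, lower in META (3.85% of genes, 8.28% in either direction). With the line number as a fixed block, the log2 change of Fas was 0.33 and that of Bid -0.06.

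Against parental, 3 of the 10 genes were higher and 7 lower in the derived lines, with a median log2 change of -0.10, against 0.10 over all genes. Beside Fas and Tnfrsf1b, the changes were -1.29 (SE 0.57) for Tnfrsf21, -0.77 (SE 0.64) for Cflar, 0.56 (SE 0.44) for Ripk1 and -0.39 (SE 0.35) for Fadd. The other 4 genes lay between -0.16 for Bid and 0.19 for Tnfrsf1a. edgeR called 0 of the 10, beside 0.0201% of all genes, and only Fas had an unadjusted p under 0.05, as did 10.3% of all genes. Of the 10, Fas alone was called by DESeq2, beside 3.38% of all genes, and by limma-voom, beside 0.115%, and 0 were called by limma-voom with the line number as a random block. Per kilobase of transcript, Cflar was higher in CTC 3 than in parental. In CPM, parental lay outside the derived range for Tnfrsf1b (14.1% of genes were higher in all derived lines) and for Fas and Cflar (15.4% were lower, 29.5% in either direction). Since the genes were proposed for such differences, nothing is read from these counts, and the 4 comparisons share libraries with one another.

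**Figure D3:**
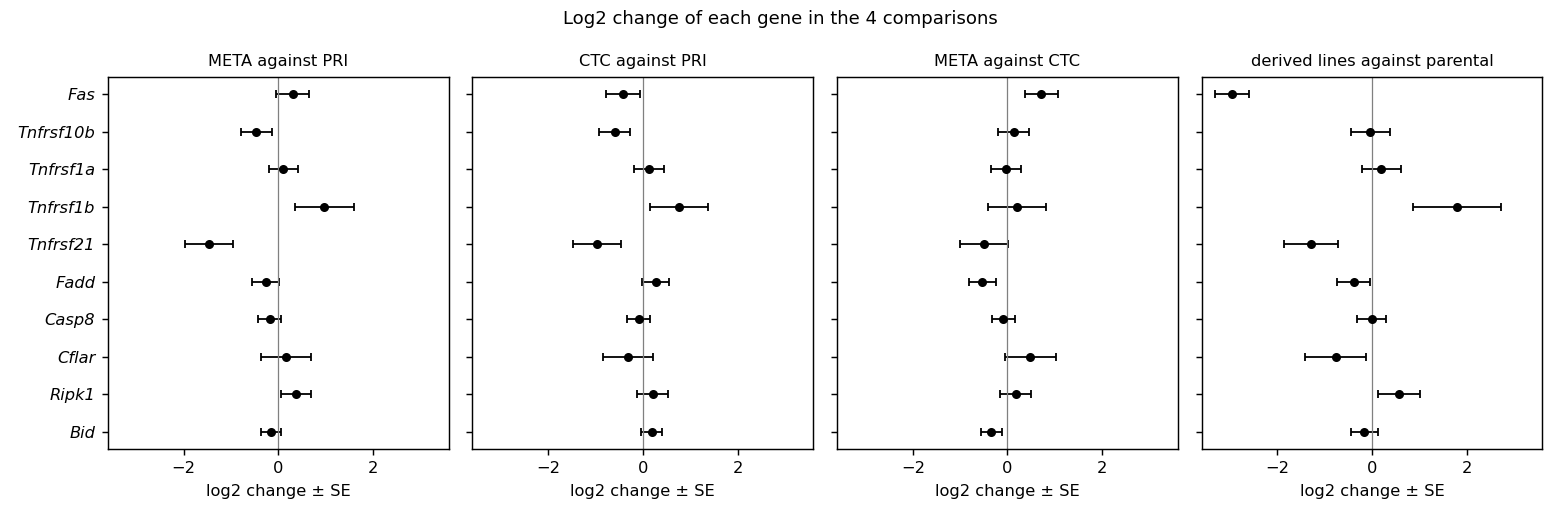
Log2 change (horizontal axis, with bars of ± 1 SE) of each of the 10 genes in META against PRI, CTC against PRI, META against CTC and derived lines against parental. Fas at -2.96 in the comparison with parental lies farthest from 0, and most other bars touch or lie near 0.

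How each gene's counts were shared among its annotated transcripts is a measure apart from the level of the gene, and it was tested too. The genes were chosen with earlier results of these data known, so these tests are not shown to be independent of that choice. Transcript counts summed to the gene count in every library. Of the 10 genes, 8 had 2 or more tested transcripts, and edgeR's diffSpliceDGE with Benjamini-Hochberg adjustment over 11184 genes tested isoform use. Deposited transcript counts are estimates in which shared exons are divided by StringTie, so the intervals below (95%, Wilson) cover counting error only.

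Fas-201 encodes the full receptor, with 981 coding bases in 9 exons. Fas-204, annotated as a target of nonsense-mediated decay, carries 1 more exon of 158 bases, which shortens the reading frame to 369 bases. That exon is printed because Fas-201 lacks it. The next exon is in both transcripts, and its first bases to the stop codon (capitals) are printed because the Fas-204 frame ends there.
Fas-204 added exon, GRCm38 chr19:34310012-34310169, plus strand: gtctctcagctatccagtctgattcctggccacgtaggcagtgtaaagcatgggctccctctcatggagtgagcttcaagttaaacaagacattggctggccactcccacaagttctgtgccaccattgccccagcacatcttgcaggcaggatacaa
Fas-204 next exon, GRCm38 chr19:34315179-34315208, plus strand: gtaaaaaaaaagttgaggactgcaaaaTGA
Fas-204 held 1.41%, 18.9% and 20.3% of Fas counts in META 5, 3 and 7, 0.690%, 0% and 0.971% in CTC 1, 3 and 6 and 3.53%, 0.292% and 19.3% in PRI 5, 7 and 8, against 21.4% in parental (interval 20.2% to 22.6%). The shares fell into 2 sets, 1 at 18.9% to 21.4% and 1 at 0% to 3.53%, with all CTC lines in the lower set and META and PRI lines in both. For CTC 3, with 0 of 405 counts, the interval reached 0.940%. Isoform use of Fas was not called in any comparison, with adjusted p of 0.298 in CTC against PRI, 0.236 in META against CTC and 0.382 in derived lines against parental (diffSpliceDGE). None of the 8 genes was called in derived lines against parental, beside 2.83% of genes, or in META against PRI, beside 0.617%.

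The coding transcripts of Cflar were shared out very unevenly. Cflar-205 and Cflar-201 have the same number of coding bases, 1443, the long form, but Cflar-205 has a last exon of 5101 bases and Cflar-201 one of 1382. Cflar-205 held 46.6%, 40.1% and 56.0% of Cflar counts in META 5, 3 and 7 and 76.9%, 0% and 78.7% in PRI 5, 7 and 8, was listed at 0 in all 3 CTC lines, and held 43.6% in parental. PRI 7 therefore went with the CTC lines. Cflar-201 held 29.8%, 29.4% and 9.46% in META, 37.0%, 71.7% and 5.29% in CTC and 6.23%, 42.7% and 3.54% in PRI, against 33.5% in parental.

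diffSpliceDGE called isoform use of Cflar in CTC against PRI (adjusted p 0.00210, beside 0.438% of genes called) and in META against CTC (adjusted p 0.00204, beside 0.474%). Limma's diffSplice called it in neither (adjusted p 1 and 0.876). Without CTC 1, the diffSpliceDGE call in CTC against PRI was lost (adjusted p 0.0617), while META against CTC kept adjusted p of 2.59e-05 to 0.0347 when each line was left out in turn. A transcript listed at 0 can be the estimator's choice between transcripts with shared exons, which was not tested, so the shares are given as a description.

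Cflar-204 encodes the short form, 645 coding bases in 5 exons, which ends in the following bases (stop codon in capitals), shown because they replace the caspase-like part of the long form.
Cflar-204 end of frame, GRCm38 chr1:58732327-58732362, plus strand: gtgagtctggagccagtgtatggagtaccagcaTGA
Cflar-204 held 3.71%, 4.61% and 5.32% of Cflar counts in META 5, 3 and 7, 16.9%, 3.39% and 48.8% in CTC 1, 3 and 6 and 3.63%, 8.89% and 9.82% in PRI 5, 7 and 8, against 9.84% in parental. CTC 6, the line with the lowest Cflar level in CPM, stood apart, with an interval of 45.1% to 52.5%. There Cflar-204 had 341 counts and the 2 long-form transcripts together 37, so the short form made up 90.2% of the 3, against 4.18% to 31.3% in the other 8 derived lines and 11.3% in parental. Parental had 344 short-form counts and 2696 long-form counts, so CTC 6 was near parental in the one and far below it in the other.

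**Figure D4:**
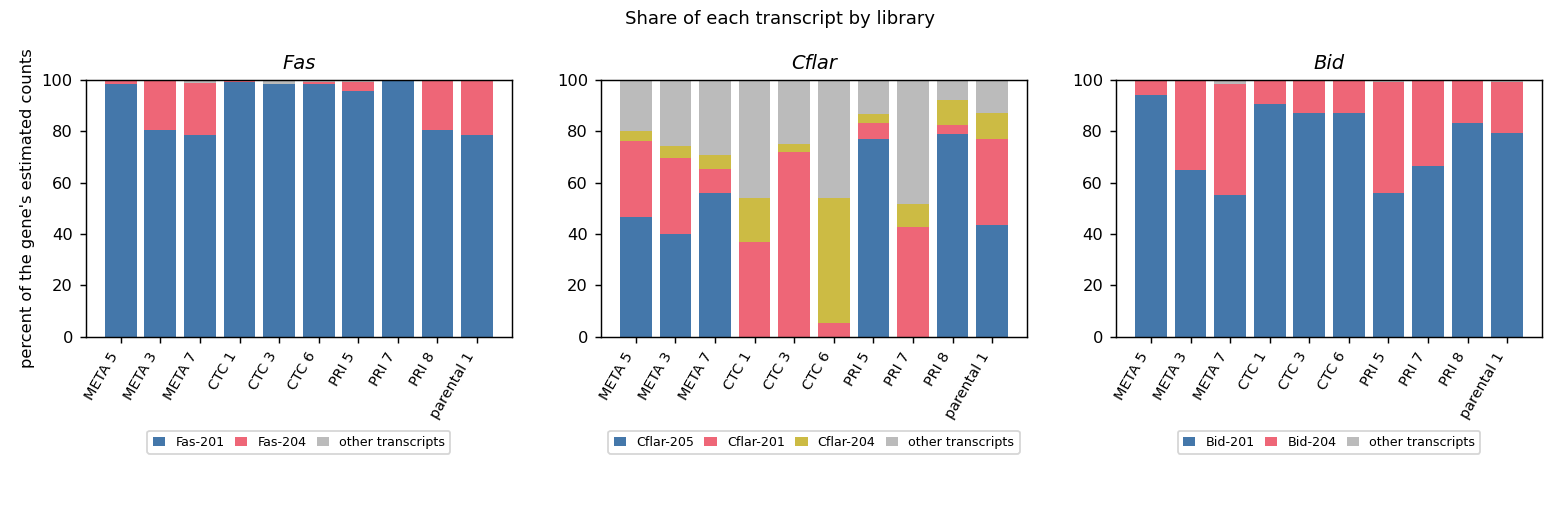
Share of each gene's estimated counts (percent, 0 to 100, stacked) held by the named transcripts of Fas, Cflar and Bid in each library, with all other transcripts in grey. Fas-204 is near 20% in META 3, META 7, PRI 8 and parental and at most 3.53% elsewhere, and Cflar-205 is listed at 0 in the CTC lines and PRI 7.

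Bid-204, a transcript annotated for nonsense-mediated decay, held 5.38%, 34.6% and 43.0% of Bid counts in META 5, 3 and 7, 9.11%, 12.9% and 12.6% in CTC 1, 3 and 6 and 43.1%, 33.0% and 16.9% in PRI 5, 7 and 8, against 20.0% in parental. The CTC lines lay below the 3 PRI lines, and META lines covered both. How many of all transcripts were separated in this way was not counted, so nothing is read from it. The last exon of Bid-204 is the stretch shared with Bcl2l13 on the opposite strand, so reads of that gene can enter the share of Bid-204. Casp8-202 held 20.7%, 16.8% and 31.5% of Casp8 counts in META, 19.7%, 15.7% and 31.5% in CTC and 14.9%, 10.04% and 20.9% in PRI, against 27.1% in parental. META 5 stood apart for Casp8-203 with 15.1%. Ripk1-203 held 22.9%, 65.5% and 30.5% of Ripk1 counts in META, 19.3%, 76.7% and 66.1% in CTC and 50.5%, 73.8% and 49.9% in PRI, against 74.3% in parental. None of these 3 genes was called for isoform use in any comparison.

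Around the 10 genes, 8 lists of the pathway held 85 further genes, of which 81 were tested. edgeR called 0 of the 81 in each of the 4 comparisons. An unadjusted p under 0.05 was found for 6 in META against PRI (8.29% of all genes), 4 in CTC against PRI (4.06%), 3 in META against CTC (3.29%) and 12 in derived lines against parental (10.3%). Of 81 genes these counts lie near the shares of all genes. The median log2 change of the 81 genes was -0.11 in META against PRI and -0.06 against parental.

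Ligand genes were at low levels, the highest being Tnfsf10. Fasl, the Fas ligand gene, reached 0.118 CPM in PRI 7 and was at 0 in 6 of 10 libraries. Tnf was at 0.0781 to 0.170 CPM in META, 0.0610 to 0.173 CPM in CTC and 0.209 to 0.536 CPM in PRI, against 0.0992 CPM in parental. Tnfsf10, which encodes TRAIL, was at 2.49, 3.69 and 0.709 CPM in META 5, 3 and 7, 4.19, 3.92 and 0.168 CPM in CTC 1, 3 and 6 and 1.10, 2.74 and 0.110 CPM in PRI 5, 7 and 8, against 0.142 CPM in parental. Of the 7 ligand genes 5 were tested, 3 of them higher and 2 lower against parental. Tnfsf15 was at 0 in 5 derived lines and at most 1.03 CPM in the others, against 2.44 CPM in parental, and Lta was at most 1.40 CPM, in PRI 8.

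Of 10 further genes, receptors of the TNF receptor family and the adaptor Edaradd, 7 were higher and 3 lower against parental. Their median log2 change was 1.41, against 0.10 over all genes. Ngfr, the p75 neurotrophin receptor gene, was at 0.184 to 1.32 CPM in the derived lines and at 0 in parental. Tnfrsf11b, which encodes the decoy receptor osteoprotegerin, was at 2.91, 0.904 and 1.64 CPM in META, at most 0.217 CPM in CTC and at most 0.878 CPM in PRI, and at 0 in parental. Edaradd was at 0.330 to 2.02 CPM in the derived lines, against 0.170 CPM in parental, and Tnfrsf25, another death receptor gene, was at most 1.64 CPM. These members of the list were all at low levels, where a log2 change rests on few counts, but others were not. In the derived lines Tnfrsf12a was at 220 to 1056 CPM, against 568 CPM in parental, and Ltbr at 95.1 to 141 CPM, against 106 CPM. Tnfrsf22 was at 18.4 to 51.4 CPM, against 23.8 CPM in parental, and Tnfrsf23 at 6.59 to 58.2 CPM, against 5.86 CPM.

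Mlkl, which encodes the pseudokinase that executes necroptosis, had its lowest levels among derived lines in META. It was at 43.1, 39.7 and 43.3 CPM in META 5, 3 and 7, at 65.0, 60.4 and 61.2 CPM in CTC 1, 3 and 6 and at 61.9, 75.4 and 95.9 CPM in PRI 5, 7 and 8, against 29.1 CPM in parental. The META lines lay below all other derived lines and above parental, with a log2 change of -0.89 (SE 0.23) against PRI which did not pass (edgeR's quasi-likelihood test, Benjamini-Hochberg adjusted p 0.594). Of all genes, 7.27% were separated as lower in META than in PRI and 3.85% as lower in META than in CTC. Ripk3, the kinase upstream of MLKL, was at 0.0520 CPM in META 5 and at 0 in the other 9 libraries. Zbp1, a sensor that engages RIPK3, was at 10.3 CPM in PRI 7 and at most 3.37 CPM elsewhere.

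Genes that edit or build the receptor complexes numbered 16, with 10 higher and 6 lower against parental. Tnfaip3, which encodes the NF-kB-induced ubiquitin editor A20, was at 69.6, 66.1 and 52.5 CPM in META, 59.8, 59.2 and 65.7 CPM in CTC and 44.4, 187 and 263 CPM in PRI 5, 7 and 8, against 215 CPM in parental. PRI 7, PRI 8 and parental stood well above all others. Cyld, a deubiquitinase gene, was at 38.1 to 118 CPM in the derived lines, against 205.5 CPM in parental. Rbck1, of the linear ubiquitin ligase, was at 30.2 to 96.4 CPM in the derived lines, against 22.6 CPM in parental, and the adaptor Tradd was at 14.5 to 32.5 CPM, against 11.8 CPM in parental.

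NF-kB factors and their feedback targets mostly lay below parental in the derived lines. Of 15 genes, 1 was higher and 14 lower in the derived lines, with a median log2 change of -0.87 against 0.10 over all genes, 5 at an unadjusted p under 0.05, beside 10.3% of all genes, and 0 called by edgeR, beside 0.0201%. All derived lines lay below parental for 10 of the 15, where 15.4% of all genes did so. The list was chosen with earlier results of these data known. All its genes are also set against the same single parental library, so nothing is read from these counts. Rela, the p65 subunit gene, was at 102 to 124 CPM in META, 109 to 185 CPM in CTC and 142 to 192 CPM in PRI, against 254 CPM in parental, with a log2 change of -0.85 (SE 0.31). Nfkb2 was at 142 to 170 CPM in META, 183 to 244 CPM in CTC and 217 to 414 CPM in PRI, against 343 CPM in parental. The chemokine genes Ccl2 and Ccl20 reached 2.67 and 2.01 CPM in the derived lines, against 6.37 and 5.40 CPM in parental. Tnfaip2, the 1 gene of the list that was higher, was at 257 to 830 CPM in the derived lines, against 193 CPM in parental.

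Of 9 modulators of Fas signalling, 3 were higher and 6 lower against parental, with a median log2 change of -0.18. Ptpn13, a phosphatase gene that in human cells encodes FAP-1, a protein binding the tail of Fas, was at 13.6 to 16.1 CPM in META, 3.91 to 12.1 CPM in CTC and 14.8 to 28.6 CPM in PRI, against 15.0 CPM in parental. Daxx was at 33.5 to 96.2 CPM in the derived lines, against 86.3 CPM in parental, Pea15a at 60.1 to 219 CPM, against 93.8 CPM, and Tax1bp1 at 127 to 205.1 CPM, against 189 CPM.

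Among 11 caspase and apoptosome genes, 7 were higher and 4 lower against parental, and among 13 tested BCL2 family genes 6 were higher and 7 lower. Apaf1, the scaffold of the apoptosome, was at 38.9 to 76.9 CPM in the derived lines, against 27.5 CPM in parental. Casp6 was at 8.03 to 38.0 CPM in the derived lines, against 7.07 CPM in parental, and Cycs, which encodes cytochrome c, at 48.9 to 294 CPM, against 330 CPM. Dffa, the caspase-activated DNase inhibitor gene, was at 7.69 to 15.7 CPM, against 13.0 CPM in parental. Bmf, a BH3-only gene, was at 50.8, 41.9 and 18.9 CPM in META 5, 3 and 7, 23.2, 28.7 and 4.30 CPM in CTC 1, 3 and 6 and 19.1, 6.59 and 1.32 CPM in PRI 5, 7 and 8, against 6.50 CPM in parental. Bcl2l11, which encodes the BH3-only protein BIM, was at 79.9 to 153 CPM in META, 33.5 to 160 CPM in CTC and 24.0 to 105 CPM in PRI, against 46.8 CPM in parental. The anti-apoptotic Bcl2 was at 48.7 to 97.0 CPM in META, 40.0 to 85.4 CPM in CTC and 33.4 to 63.6 CPM in PRI, against 59.0 CPM in parental. Bok was at 114 CPM in META 3 and 113 CPM in CTC 3, the lines that share a number, and at 24.9 to 72.1 CPM in the other derived lines, against 38.1 CPM in parental. Pmaip1 was listed at 0 in all 10 libraries.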

How the data were processed

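Levels rest on gene and transcript tables of estimated counts that the authors deposited, unscaled; the values are whole numbers. Per the submitters' processing notes, the genome build was GRCm38 and the tools were DESeq2 1.26.0, StringTie 2.0.3 and HISAT2 2.1.0. The annotation release and the use of strand are not given in the sources used here. Positions and transcript structures come from GENCODE M21, promoters from RefSeq (GRCm38.p6). Per the labels, libraries were made with a total RNA kit and sequenced in pairs.

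Assembled transcripts tied to no gene (17127 of 72544 entries) were left out of library sizes and tests. The main test was edgeR 4.0.16's quasi-likelihood test (R 4.3.3, TMM factors, filterByExpr defaults) in a single fit of all 10 libraries with 4 group means, and p-values were adjusted over 19935 genes by the Benjamini-Hochberg method, with a threshold of 0.05. The single parental library was assumed to vary like the others. Isoform use was tested with diffSpliceDGE. The scripts were tested on simulated data, where diffSpliceDGE also called genes made without a change, so limma's diffSplice (limma 3.58.1) was added after seeing the data. DESeq2 1.42.0, limma-voom, other scalings and filters, all table entries, blocks and leaving out lines were the other alternatives. No 2 libraries held identical values.

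The 10 genes and the lists were chosen with earlier results of these data known. Named genes beyond the 10 were up to 4 per list with the smallest unadjusted p in any comparison and the 5 nearest to Fas by Pearson r. Fasl, Ripk3, Pmaip1, Pdgfra, Krt18, Tnfaip2, Tnfrsf12a, Ltbr, Tnfrsf22 and Tnfrsf23 were named after their values were seen.

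Some lines of different groups share a number. Deviations from group means correlated at 0.319 (PRI 5 and META 5), 0.120 (PRI 7 and META 7) and 0.406 (CTC 3 and META 3), against a median of -0.05 for pairs with different numbers. Higher than all 3 were CTC 6 with META 7 (0.506) and PRI 8 with CTC 6 (0.430), whose numbers differ. The labels do not settle whether numbers pair lines; since each same-number value was over 0.1, they were taken as pairs in the fits with a block only.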

Additional observations from a re-analysis of the deposited data

Results flagged for a closer look

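In 2 of the 10 genes, 1 of the 9 derived lines stood apart from the other 8 by Dixon's criterion, which compares the gap to the nearest line with the whole range. Fas was at 14.8 CPM in META 5, and the next derived line, PRI 8, was at 9.57 CPM. Tnfrsf21 was at 27.2 CPM in PRI 8, and the next derived line, PRI 7, was at 15.4 CPM. By chance such a gap is found in about 5% of groups tested. Among the 11311 genes with a mean log2 CPM of at least 1, 9.89% had a derived line standing apart in this way, and among all 19935 tested genes 15.6% did, so nothing is read from the 2 of 10.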

How the results depend on the processing

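The log2 change of Fas over the derived lines against parental ran from -3.09 to -2.90 over 17 alternatives, and Fas was called in 4 of them (upper quartile factors, DESeq2, limma-voom and without META 5). No other of the 10 genes was called in any alternative. In CTC against PRI, leaving out CTC 3 moved Cflar to -1.14, and the fixed block, which links these groups through META lines since they share no number, turned the direction of Fas (0.20), Fadd (-0.23), Cflar (0.43) and Bid (-0.13). Genes called in META against PRI numbered 1 with the stricter filter, 187 with DESeq2, 1 with the random replicate block and 0 to 1 without single lines, against 0 in edgeR. In CTC against PRI, DESeq2 called 66 genes, and 0 were called without single lines. In META against CTC, edgeR called 1 gene, DESeq2 28, and 0 were called with no filter, with all entries or with the fixed replicate block (1 residual degree of freedom), and 0 to 1 without single lines. Against parental, edgeR called 4 genes, 1 with the stricter filter, 673 with DESeq2, 23 with limma-voom, 42 with all entries, 12 with the random replicate block and 4 to 6 without single lines. Genes with isoform use called were 18 (stricter filter), 16 (limma) and 48 to 103 (without single lines) in META against PRI, 30, 15 and 31 to 84 in CTC against PRI, 32, 11 and 35 to 67 in META against CTC, and 99, 97 and 224 to 512 against parental. The causes were not tested. Isoform use was not fitted with a block. At 405 counts, the shallowest Fas library allows a transcript share of up to 0.940% to go unseen.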
